A study of Mus musculus with 12 samples.

Results

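The interleukin 6 (IL-6) family and its SOCS feedback were followed in TNF-stimulated mouse glomeruli through 10 genes: the ligands Il6, Lif and Il11, the receptor chains Il6ra, Il6st, Osmr and Lifr, and the feedback inhibitors Socs1, Socs2 and Socs3. They were taken by symbol from the platform annotation, which gave 26 probe sets out of 45101 on the array. Each gene was read from its lead probe set, the one with the highest mean over all arrays, so that the 10 genes stood among 18194 genes tested. Glomeruli of 6 to 8 week old male mice lacking both TNF receptors (Tnfr1,2-/-), TNF receptor 1 (Tnfr1-/-, allele B6.129-Tnfrsf1atm1Mak) or TNF receptor 2 (Tnfr2-/-, allele B6.129-Tnfrsf1btm1Mwm) were compared with glomeruli of C57BL/6J wildtype mice. The double mutant combined both alleles by cross-breeding. The targeted alleles are inherited in the germ line, so that every cell of the glomerulus lacked the receptor. All 4 genotypes were cultured in the same way, serum starved and then kept with murine TNF at 50 ng/ml over 12 hours, and 3 arrays were hybridized per genotype. Unstimulated glomeruli were not analysed here, so that no value gives an induction by TNF.

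IL-6, LIF and IL-11 are secreted cytokines that share the signalling chain gp130, encoded by Il6st. IL-6 first binds its own receptor chain, encoded by Il6ra, whereas LIF and oncostatin M assemble gp130 with a second long chain, encoded by Lifr or Osmr. The activated receptor switches on JAK kinases and the transcription factor STAT3, which in turn induces Socs3, and the SOCS3 protein binds gp130 and stops the signal. In the glomerulus, mesangial cells are a well known source of IL-6, and TNF is a classical inducer of Il6 through NF-kB.

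The promoters of Il6 and Lif are shown because these 2 ligands were called lower in glomeruli without Tnfr1, as described below. The 250 bases before the annotated start are given on the gene's strand (RefSeq, GRCm38.p6), Il6 from chr5:30012864-30013113 and Lif from chr11:4257318-4257567, both on the plus strand. Capitals mark matches to the motifs searched.

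Il6: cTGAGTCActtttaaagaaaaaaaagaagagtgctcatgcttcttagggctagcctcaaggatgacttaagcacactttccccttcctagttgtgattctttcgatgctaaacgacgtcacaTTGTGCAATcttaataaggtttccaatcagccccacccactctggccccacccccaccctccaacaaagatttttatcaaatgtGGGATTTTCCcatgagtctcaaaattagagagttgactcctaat

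Lif: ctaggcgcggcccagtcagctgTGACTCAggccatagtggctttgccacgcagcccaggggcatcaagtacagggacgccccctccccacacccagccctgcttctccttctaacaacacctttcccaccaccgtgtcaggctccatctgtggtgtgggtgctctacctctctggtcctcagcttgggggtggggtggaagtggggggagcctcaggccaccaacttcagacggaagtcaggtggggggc

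The Il6 promoter held a match to the NF-kB consensus from base -44 to -35, a match to the C/EBP motif TTNNGCAAT from -128 to -120 and a match to the AP-1 motif TGANTCA from -249 to -243. The Lif promoter held only an AP-1 match, from -228 to -222. Both strands were searched in windows of 300 bases, 250 before and 50 after the start, and no match overlapped another. Among 32851 such windows of the mouse genome, 4.51% held an NF-kB match, 2.18% a C/EBP match, 7.81% an AP-1 match and 8.3% a match to the STAT motif TTCNNNGAA. Windows were listed for 9 of the 10 genes. In the others, AP-1 matches lay in an Il11 and the Osmr window and a STAT match lay in the Socs3 window. A match is a description of letters and says nothing about a factor's presence in these glomeruli.

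The labels and the arrays were checked first. Tnfrsf1b, the gene of TNF receptor 2, lay between 4.95 and 5.66 on the 6 arrays of genotypes without it and between 6.76 and 8.36 on the other 6 (log2 signal). Tnfrsf1a, the gene of TNF receptor 1, lay between 9.11 and 10.18 on the 6 arrays without Tnfr1 and between 10.23 and 10.82 on the 6 with it, with no overlap. No array went against its label. On 5 arrays, called set 2 (replicate 3 of every genotype and also replicate 2 of Tnfr1,2-/-), the beta-actin control gave a 3′ minus 5′ difference of 1.82 to 2.30, against 0.667 to 1.005 on the other 7 (set 1). This difference measures how much signal is lost towards the 5′ end of transcripts, and since both sets hold all 4 genotypes, values within sets and a fit with the set as a block are given where they matter. Where a shift between sets is given, it is the mean of replicate 3 minus replicates 1 and 2 over the other 3 genotypes. Over all arrays, markers of podocytes (4 of 5 measured) lay between 7.47 and 13.8 (log2 signal), those of glomerular endothelium between 7.37 and 11.5, those of mesangial and smooth muscle cells between 5.45 and 12.9, those of tubular epithelium between 3.47 and 8.34 and those of neutrophils between 3.26 and 5.77. No detection calls were used, and levels of different probe sets cannot be ranked. Of 32 markers measured in 7 lists, 2 were called (defined in the next paragraph) between arrays without and with Tnfr1, beside 2.52% of all genes. Itga8, a mesangial integrin, was 1.97-fold higher without Tnfr1 (adjusted p = 0.0025 in limma) and S100a8, a neutrophil protein, 2.33-fold lower (adjusted p = 0.0022). S100a8 was dim (3.66 to 5.77), and of the 4 neutrophil markers measured 2 read lower and 2 higher without Tnfr1 (median log2 change 0.0047). Of the 5 mesangial markers, 4 read higher and 1 lower (median 0.20). Kdr, the endothelial VEGF receptor, was called in Tnfr1-/- against wildtype glomeruli, at 2.13 times the wildtype level (adjusted p = 0.041), and not over all 12 arrays (adjusted p = 0.086). The 5 macrophage markers gave no call in any comparison, and their summed linear signal ran from 1133 to 1340 in Tnfr1,2-/-, from 1097 to 3294 in Tnfr1-/-, from 1295 to 2779 in Tnfr2-/- and from 1077 to 2131 in wildtype glomeruli. That of 4 neutrophil markers ran from 62.9 to 79.9, 69.3 to 73.2, 89.5 to 103 and 80.3 to 91.5 in the same order, and that of 5 mesangial markers from 9981 to 15735, 11183 to 11889, 7873 to 10819 and 7616 to 10431. The 4 podocyte markers summed to 17945 to 22431, 9192 to 20790, 10723 to 17839 and 11976 to 15474, and the 5 endothelial markers to 4286 to 6139, 5164 to 7090, 5001 to 6671 and 3584 to 4689, again in that order. Sums lay above all wildtype sums for podocytes in Tnfr1,2-/-, for mesangial cells in Tnfr1-/- and for endothelium in Tnfr1-/- and Tnfr2-/- glomeruli. The neutrophil sums of Tnfr1,2-/- and Tnfr1-/- glomeruli lay below those of wildtype. All other sums given here overlapped wildtype. The part of cell composition in the results below was not tested, and in such bulk samples fewer cells of a type and less RNA per cell cannot be told apart.

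Calls required a change of at least 1.5-fold and an adjusted p below 0.05 from limma, corrected over the 18194 genes of each comparison. Against wildtype, 1 of the 10 genes was called in Tnfr1,2-/- glomeruli (Lif, lower), where 1.3% of all genes were called. An unadjusted p under 0.05 was found for 5 of 10, beside 1535 of the 18194 genes tested. None was called in Tnfr1-/- glomeruli (background 1.2%), with 4 of 10 at an unadjusted p under 0.05 (1155 of all genes). None was called in Tnfr2-/- glomeruli either (background 0%), with 0 of 10 at an unadjusted p under 0.05 (128 of all genes). The 3 comparisons share the wildtype arrays. Between mutants, Lif and Lifr were called in Tnfr1,2-/- against Tnfr2-/- glomeruli (2 of 10, background 1.39%) and Lif alone in Tnfr1-/- against Tnfr2-/- glomeruli (1 of 10, background 1.2%). None was called in Tnfr1,2-/- against Tnfr1-/- glomeruli (background 0.0055%), with 0 of 10 at an unadjusted p under 0.05 (472 of all genes). When the 6 arrays without Tnfr1 were set against the 6 with it, 3 of 10 were called, against 2.52% of all genes. Il6 and Lif were lower (2 of 10, where 1.59% of all genes were called lower) and Lifr was higher (1 of 10, where 0.929% were called higher). For Tnfr2, averaged in the same way, none of the 10 was called (background 0.0275%), and none had an unadjusted p under 0.05 (176 of all genes). The median log2 change of the 10 genes was 0.13 in Tnfr1,2-/- and 0.12 in Tnfr1-/- against wildtype glomeruli, beside -0.0012 and -0.0049 over all genes, since losses and gains lay on both sides of 0. The labels do not say whether the 3 preparations of a genotype came from separate mice, so that p-values measure the spread between these preparations.

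Counted by overlap alone, the 3 Tnfr1,2-/- arrays lay wholly outside the 3 wildtype arrays for 5 of the 10 genes, below for Il6, Lif and Il6st and above for Il6ra and Lifr, where 12.4% of all genes did not overlap. In Tnfr1-/- glomeruli this held for 3 genes, below for Il6 and Lif and above for Lifr (11% of all genes). In Tnfr2-/- glomeruli it held for none of the 10 (4.94% of all genes).

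Il6, the ligand that gives the family its name, was lower in glomeruli without Tnfr1, and its spread in the double mutant was wide. The log2 signal was 6.00, 7.87 and 8.19 on the Tnfr1,2-/- arrays, 7.37, 7.50 and 7.48 on the Tnfr1-/- arrays, 8.95, 8.85 and 9.23 on the Tnfr2-/- arrays and 8.29, 8.47 and 9.05 on the wildtype arrays. All 6 arrays without Tnfr1 lay below all 6 with it, but the highest Tnfr1,2-/- array (8.19) came close to the lowest wildtype array (8.29). The means were 7.35 ± 1.19 in Tnfr1,2-/-, 7.45 ± 0.07 in Tnfr1-/-, 9.01 ± 0.19 in Tnfr2-/- and 8.60 ± 0.40 in wildtype glomeruli (SD, n = 3 each). The range between the 3 arrays was thus 2.19 log2 units in Tnfr1,2-/-, against 0.13 in Tnfr1-/-, 0.38 in Tnfr2-/- and 0.77 in wildtype glomeruli, and the Tnfr1,2-/- range rested on replicate 1 alone. That array belonged to set 1, the set with the smaller 3′ minus 5′ difference, and had the lowest weight of the 12 in limma's array weights (0.374). Replicate 3 of the same genotype had a similar weight (0.403), and replicate 2 had the highest of all (3.02).

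In the main fit (limma over all 12 arrays, without a block), the change of Il6 was not called in either single comparison with wildtype. It was -1.25 in Tnfr1,2-/- glomeruli (log2, SE 0.45, 2.38-fold lower, adjusted p = 0.40, limma) and -1.15 in Tnfr1-/- glomeruli (SE 0.45, 2.23-fold lower, adjusted p = 0.54). Both SEs draw on the spread within all 4 genotypes, that of Tnfr1,2-/- included. Without Tnfr1,2-/- replicate 1, the only set 1 array of that genotype, the change in Tnfr1,2-/- glomeruli shrank to -0.57. In the same fit the change in Tnfr1-/- glomeruli was called. Il6 read 0.35 log2 units higher on set 2 than on set 1 within genotypes. The difference between Tnfr1,2-/- and wildtype arrays was -2.38 within set 1 (1 against 2 arrays) and -1.02 within set 2 (2 against 1). Over all 12 arrays the change without Tnfr1 was -1.41 (SE 0.32, 2.65-fold lower, adjusted p = 0.037). This call was kept when any of the 3 Tnfr1,2-/- arrays was left out and lost when any of the other 9 arrays was left out, with changes between -1.61 and -1.07 and adjusted p up to 0.093. Within set 1 the difference between arrays without and with Tnfr1 was -1.68 (3 against 4 arrays), and within set 2 it was -1.29 (3 against 2). With the array set as a block the change was -1.53 over all 12 arrays (adjusted p = 0.0011), and that in Tnfr1,2-/- against wildtype glomeruli was called (-1.51, SE 0.33, adjusted p = 0.031). Tnfr1,2-/- and Tnfr1-/- glomeruli did not differ beyond their spread (-0.10, 95% interval -1.08 to 0.88), nor did Tnfr2-/- and wildtype glomeruli (0.40, -0.58 to 1.39). Both intervals are wide and still hold a 1.5-fold rise, and the first also holds a 1.5-fold loss.

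Lif, which encodes leukaemia inhibitory factor, was the member with the largest change and, in the main fit, the only one called in a single comparison with wildtype. Its log2 signal was 7.50, 6.86 and 7.39 on the Tnfr1,2-/- arrays, 7.70, 7.94 and 7.24 on the Tnfr1-/- arrays, 10.1, 8.97 and 8.81 on the Tnfr2-/- arrays and 9.32, 8.94 and 8.56 on the wildtype arrays. The 6 arrays without Tnfr1 ended at 7.94 and the 6 with it began at 8.56, so that the groups were separate. Lif fell by 1.69 log2 units in Tnfr1,2-/- glomeruli (SE 0.34, 3.22-fold lower, adjusted p = 0.035, limma) and the change was -1.32 in Tnfr1-/- glomeruli (SE 0.34, 2.49-fold lower, adjusted p = 0.13, not called). The call in the double mutant held in 5 of the 12 fits that left out 1 array (adjusted p 0.0077 to 0.16) and was lost without wildtype replicate 1 or 2, any Tnfr1,2-/- array, Tnfr1-/- replicate 1 or Tnfr2-/- replicate 2. Set against Tnfr2-/- glomeruli, where it was highest, Lif was reduced 4.12-fold in the double mutant (adjusted p = 0.010) and 3.19-fold in the Tnfr1 mutant (adjusted p = 0.040).

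Over all 12 arrays Lif was 3.20-fold lower without Tnfr1 (log2 change -1.68, SE 0.24, adjusted p = 0.0019), and this call held in all 12 fits that left out 1 array (adjusted p 0.0017 to 0.0078) and, with these included, in all 21 alternative fits run. Lif moved alike in both array sets, with a difference of -1.62 in set 1 and -1.52 in set 2. A second Lif probe set was dim (3.35 to 4.53) and its change over the 12 arrays was -0.52 (adjusted p = 0.36 over all probe sets). Loss of Tnfr2 alone left no call: the change was 0.36 in Tnfr2-/- glomeruli (95% interval -0.39 to 1.10). That interval is wide and still holds a 1.5-fold rise.

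Il11, a ligand induced in many cells by TGF-beta, varied within every genotype and gave no call. Its log2 signal was 9.01, 8.15 and 9.23 on the Tnfr1,2-/- arrays, 9.65, 7.36 and 8.22 on the Tnfr1-/- arrays, 9.69, 8.98 and 8.55 on the Tnfr2-/- arrays and 9.19, 8.20 and 8.42 on the wildtype arrays. All 4 genotypes overlapped, and the range reached 2.28 log2 units among the Tnfr1-/- arrays. Over all 12 arrays the change without Tnfr1 was -0.23 (95% interval -1.05 to 0.58), an interval that still holds a 1.5-fold loss. The plot of the 3 ligands shows Il6 and Lif divided by the presence of Tnfr1 and Il11 not.

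**Figure D1:**
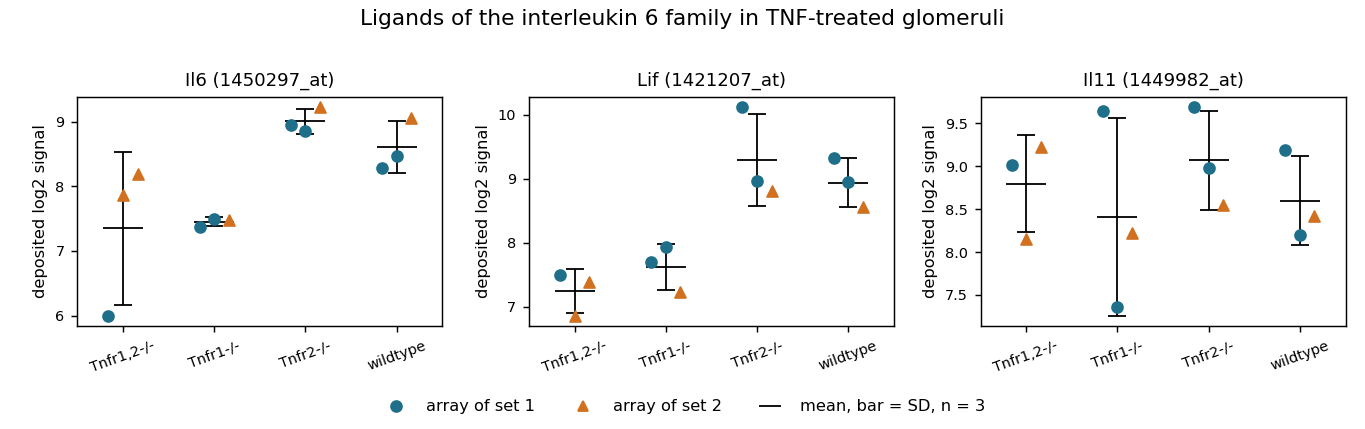
Deposited log2 signal (vertical axis) of the lead probe sets of Il6, Lif and Il11 on each array by genotype, with the mean and SD of 3 arrays per genotype as bars, circles for arrays of set 1 and triangles for arrays of set 2. For Il6 the Tnfr1,2-/- arrays spread from 6.00 to 8.19 and the Tnfr1-/- arrays only from 7.37 to 7.50, and for Lif the 6 arrays without Tnfr1 end at 7.94, below the 8.56 at which the other 6 begin.

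Lifr, the receptor chain that binds LIF and pairs with gp130, moved opposite to its ligand. Its log2 signal was 9.65, 9.84 and 10.6 on the Tnfr1,2-/- arrays, 9.28, 9.78 and 10.3 on the Tnfr1-/- arrays, 8.27, 8.40 and 9.06 on the Tnfr2-/- arrays and 8.52, 8.62 and 8.95 on the wildtype arrays. Every array without Tnfr1 lay above every array with it. The log2 change of Lifr against wildtype was 1.31 in Tnfr1,2-/- glomeruli (SE 0.31, 2.49-fold, adjusted p = 0.076, limma) and 1.08 in Tnfr1-/- glomeruli (SE 0.31, 2.12-fold, adjusted p = 0.19), neither of them called. It was called in Tnfr1,2-/- against Tnfr2-/- glomeruli, with a gain of 2.71-fold (adjusted p = 0.046). Over all 12 arrays Lifr was 2.39-fold higher without Tnfr1 (log2 change 1.26, SE 0.22, adjusted p = 0.0068), a call that held in all 12 fits without 1 array (adjusted p 0.0052 to 0.026) and, with these included, in all 21 alternative fits run.

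A second Lifr probe set divided the arrays in the same way: it read 7.74, 7.76 and 7.09 on the Tnfr1,2-/- arrays, 7.40, 7.43 and 7.81 on the Tnfr1-/- arrays, 6.45, 6.72 and 6.79 on the Tnfr2-/- arrays and 6.80, 6.44 and 6.91 on the wildtype arrays. Its groups without and with Tnfr1 were again separate, with a change of 0.85 (SE 0.15, adjusted p = 0.013 over all probe sets). The third probe set, at 5.19 to 6.07, changed by 0.26 (adjusted p = 0.59 over all probe sets). The lead probe set read 0.62 log2 units higher on set 2 than on set 1 within genotypes, and the difference between arrays without and with Tnfr1 was 1.12 in set 1 and 1.22 in set 2. With the array set as a block, Il6, Lif and Lifr were called in Tnfr1,2-/- against wildtype glomeruli (3 of 10, 2.13% of all genes) and Lif and Lifr in Tnfr1-/- against wildtype glomeruli (2 of 10, 2.58% of all genes).

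Il6st, the shared chain gp130, was lower in the double mutant by its lead probe set but not called. Its log2 signal was 11.7, 11.1 and 10.7 on the Tnfr1,2-/- arrays, 11.8, 12.0 and 11.2 on the Tnfr1-/- arrays, 12.4, 11.9 and 12.1 on the Tnfr2-/- arrays and 12.3, 12.1 and 11.7 on the wildtype arrays. The Tnfr1,2-/- arrays lay just below the wildtype arrays (highest 11.73 against lowest 11.74), and the Tnfr1-/- arrays overlapped them. The change was -0.86 in Tnfr1,2-/- glomeruli (SE 0.28, 1.81-fold lower, adjusted p = 0.32, limma) and -0.66 over all 12 arrays without Tnfr1 (SE 0.20, adjusted p = 0.15). The array set weighed on this gene: the lead probe set read -0.43 on set 2 relative to set 1 within genotypes, and 2 further Il6st probe sets read -2.30 and -1.88. The last of the 4 probe sets shifted by 0.20. Within set 1 the difference between arrays without and with Tnfr1 was -0.31 by the lead probe set, and within set 2 it was -0.92. With the set as a block, the change over all 12 arrays was -0.57 (adjusted p = 0.024), which is under 1.5-fold.

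Il6ra, the chain that binds IL-6, and Osmr, the chain that binds oncostatin M, gave no call. Il6ra read 6.49, 6.69 and 6.51 on the Tnfr1,2-/- arrays, 5.63, 6.77 and 7.55 on the Tnfr1-/- arrays, 5.70, 5.57 and 6.25 on the Tnfr2-/- arrays and 5.91, 6.29 and 6.01 on the wildtype arrays. The Tnfr1,2-/- arrays lay above the wildtype arrays, whereas the Tnfr1-/- arrays ranged over 1.92 log2 units and held both the lowest value outside Tnfr2-/- glomeruli and the highest of all. The change over all 12 arrays was 0.65 (SE 0.27, adjusted p = 0.36, limma), and the gene was called in 1 of the 12 fits that left out an array, the one without Tnfr1-/- replicate 1 (adjusted p = 0.021). A second Il6ra probe set, at 5.32 to 5.96, changed by -0.02.

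Osmr was the steadiest receptor chain, with lead values of 11.5, 11.4 and 11.7 on the Tnfr1,2-/- arrays, 11.5, 12.0 and 11.8 on the Tnfr1-/- arrays, 11.5, 11.3 and 11.7 on the Tnfr2-/- arrays and 11.4, 11.4 and 11.6 on the wildtype arrays. All genotypes overlapped, and the change without Tnfr1 was 0.17 (95% interval -0.08 to 0.42), an interval that does not reach 1.5-fold. Another Osmr probe set read -1.94 on set 2 relative to set 1 within genotypes, so that it followed the array set and not the genotype. The plot of the receptor chains sets the division of both Lifr probe sets by Tnfr1 beside an Il6st probe set that follows the array set.

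**Figure D2:**
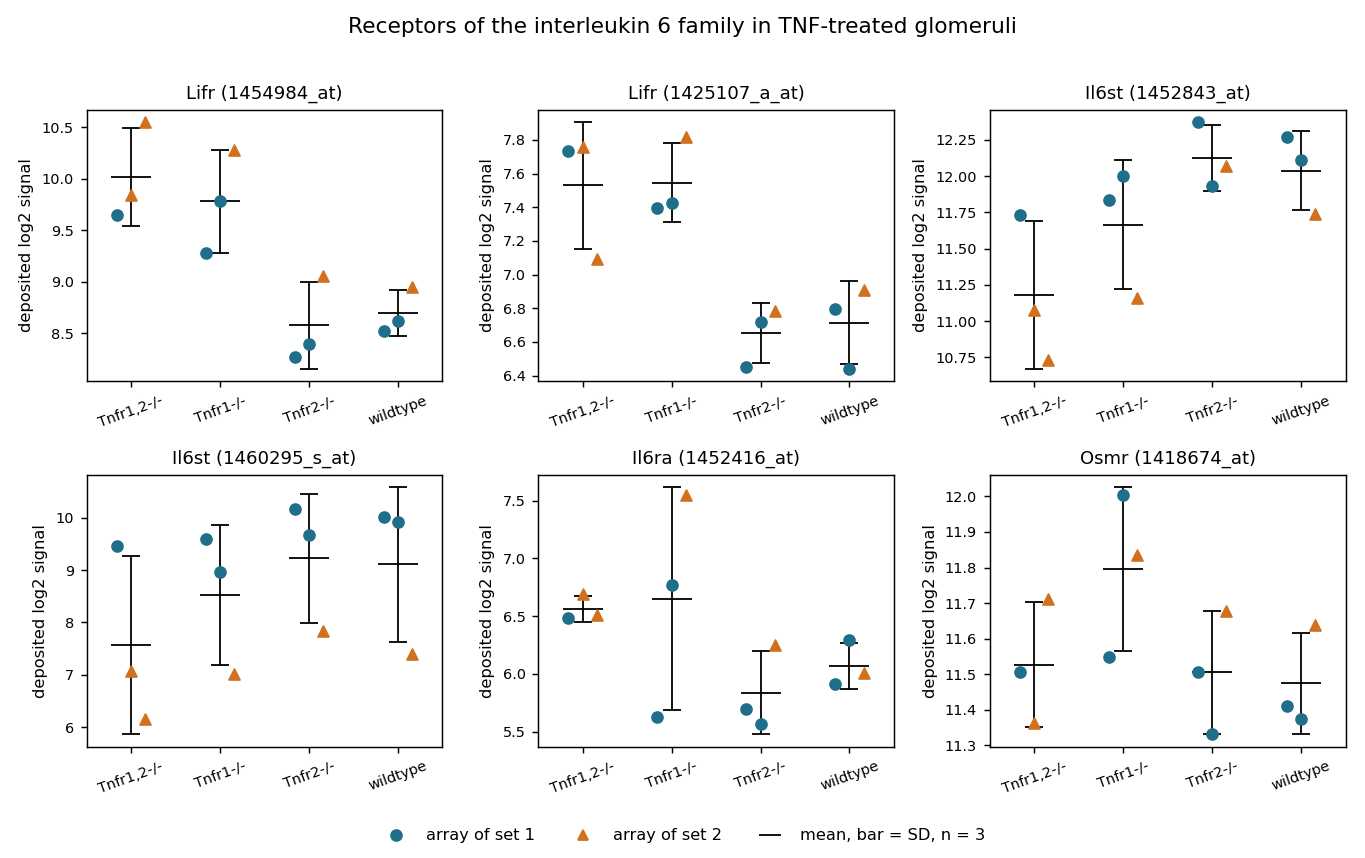
Deposited log2 signal (vertical axis) of receptor chain probe sets on each array by genotype, with the mean and SD of 3 arrays per genotype as bars, circles for arrays of set 1 and triangles for arrays of set 2. Both Lifr probe sets are higher on all arrays without Tnfr1 (the lead one from 9.28 to 10.6, against 8.27 to 9.06), while the second Il6st probe set drawn is lowest on the set 2 arrays of every genotype.

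Socs3, the inhibitor that STAT3 induces and that blocks gp130, read higher without Tnfr1 but did not pass the test. Its lead probe set read 9.46, 10.1 and 10.8 on the Tnfr1,2-/- arrays, 9.54, 9.90 and 10.2 on the Tnfr1-/- arrays, 8.997, 9.25 and 9.56 on the Tnfr2-/- arrays and 8.97, 8.79 and 9.57 on the wildtype arrays. The groups overlapped: the lowest Tnfr1,2-/- and Tnfr1-/- arrays lay below the highest wildtype array. Within each array set, arrays without and with Tnfr1 were separate. They read 9.46 to 9.90 against 8.79 to 9.25 in set 1 and 10.1 to 10.8 against 9.56 to 9.57 in set 2. The change was 1.02 in Tnfr1,2-/- glomeruli (SE 0.33, 2.03-fold higher, adjusted p = 0.29, limma), 0.76 in Tnfr1-/- glomeruli (SE 0.33, 1.69-fold higher, adjusted p = 0.70) and 0.81 over all 12 arrays (SE 0.23, 1.76-fold higher, adjusted p = 0.12).

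The Socs3 probe sets differed in how they read the array sets. The second one, at 8.97, 9.40 and 10.3 on the Tnfr1,2-/- arrays, 9.39, 9.52 and 9.50 on the Tnfr1-/- arrays, 8.45, 8.72 and 9.03 on the Tnfr2-/- arrays and 8.33, 8.74 and 8.70 on the wildtype arrays, changed by 0.85 without Tnfr1 (adjusted p = 0.077 over all probe sets). In this probe set the arrays without Tnfr1 lay above the wildtype arrays, and only Tnfr1,2-/- replicate 1 lay below a Tnfr2-/- array. The third changed by 0.30 (adjusted p = 0.91 over all probe sets) and read -1.17 on set 2 relative to set 1 within genotypes, whereas the lead probe set shifted by 0.52 the other way. Against wildtype and with the set as a block, the third changed by 0.57 in Tnfr1,2-/- glomeruli (adjusted p = 0.13, limma). In Tnfr1-/- glomeruli it changed by 0.71 (adjusted p = 0.033). Its set 1 arrays without Tnfr1 (9.22 to 9.50) lay above those with it (8.47 to 8.82), and in set 2 they overlapped. With the set as a block, Socs3 joined Il6, Lif and Lifr among the calls over all 12 arrays (0.71, adjusted p = 0.011), which made 4 of the 10 genes, against 3.58% of all genes.

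Socs2, known as a brake on growth hormone signalling, and Socs1, an inhibitor of JAK kinases best known from interferon responses, gave no call. Socs2 read 9.85, 10.1 and 9.83 on the Tnfr1,2-/- arrays, 9.69, 9.12 and 10.2 on the Tnfr1-/- arrays, 9.57, 9.16 and 9.44 on the Tnfr2-/- arrays and 9.27, 9.20 and 9.98 on the wildtype arrays. The groups overlapped, and the change without Tnfr1 was 0.36 (95% interval -0.07 to 0.80). Its other 5 probe sets changed by 0.001 to 0.35 over the 12 arrays, all with an adjusted p above that of the lead probe set (0.67 over all probe sets). Socs1 was dim on all arrays: 5.02, 4.73 and 4.30 in Tnfr1,2-/-, 4.97, 5.11 and 4.67 in Tnfr1-/-, 5.32, 5.73 and 4.51 in Tnfr2-/- and 5.10, 5.22 and 4.30 in wildtype glomeruli. Its lowest array in each genotype was one of set 2, and its change without Tnfr1 was -0.23 (95% interval -0.74 to 0.28).

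**Figure D3:**
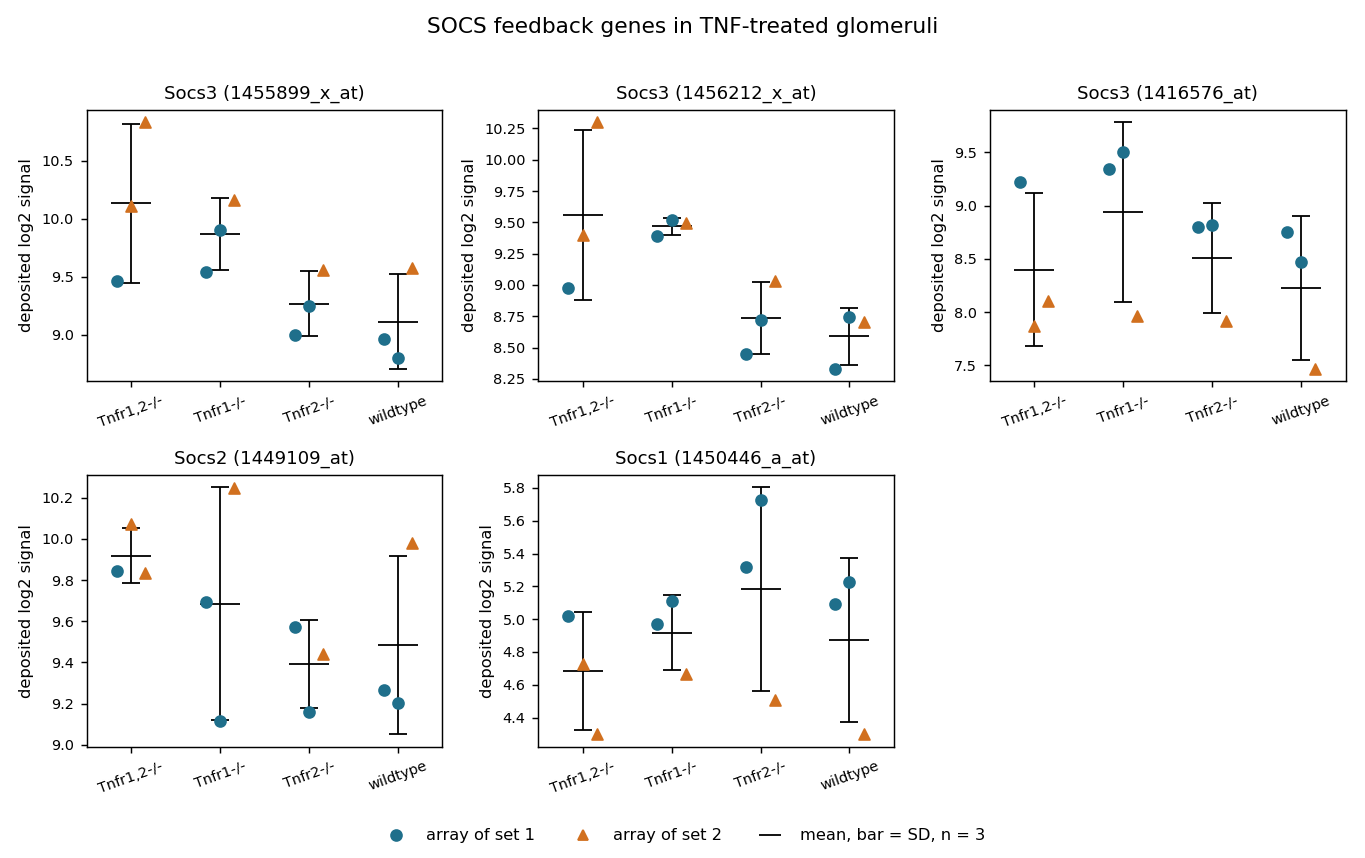
Deposited log2 signal (vertical axis) of the 3 Socs3 probe sets and of the lead probe sets of Socs2 and Socs1 on each array by genotype, with the mean and SD of 3 arrays per genotype as bars, circles for arrays of set 1 and triangles for arrays of set 2. The lead Socs3 probe set reads up to 10.8 in Tnfr1,2-/- and up to 9.57 in wildtype glomeruli with overlap, and the third Socs3 probe set is lower on the set 2 arrays.

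Side by side, the changes of the 10 genes against wildtype ran from -1.69 (Lif) to 1.31 (Lifr) in Tnfr1,2-/- glomeruli and from -1.32 (Lif) to 1.08 (Lifr) in Tnfr1-/- glomeruli, as the plot of the changes shows. In Tnfr2-/- glomeruli the changes of the 10 genes lay between -0.23 (Il6ra) and 0.47 (Il11). Whether the change on loss of Tnfr1 depended on Tnfr2 was tested as the interaction of both loci. It called none of the 10 genes (background 0%, adjusted p = 0.998 for each, limma), with 0 of 10 at an unadjusted p under 0.05 (245 of all genes). The interaction was -0.73 for Lif (95% interval -1.79 to 0.33), -0.50 for Il6 (-1.89 to 0.89) and 0.36 for Lifr (-0.59 to 1.30). Each of these intervals still holds an interaction of 1.5-fold.

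**Figure D4:**
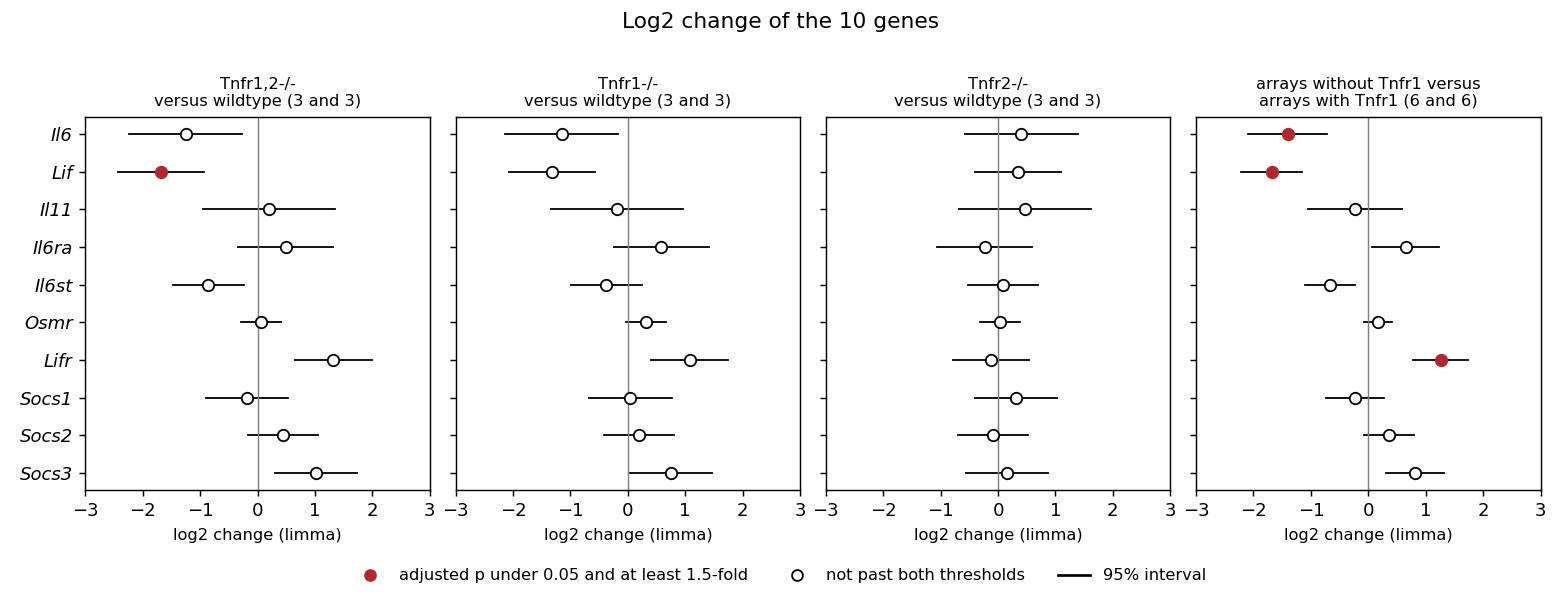
Log2 change from limma (horizontal axis, points) with its 95% interval (lines) for the 10 genes in Tnfr1,2-/-, Tnfr1-/- and Tnfr2-/- against wildtype glomeruli and for the 6 arrays without against the 6 with Tnfr1. Filled points mark calls, which are Lif in the first panel and Il6, Lif and Lifr in the last.

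Other genes of the pathway were followed in 5 lists of 54 genes, of which 49 were measured. In Tnfr1,2-/- glomeruli 2 of them were called, both lower, in Tnfr1-/- glomeruli 1, also lower, in Tnfr2-/- glomeruli 0, beside 1.3%, 1.2% and 0% of all genes. Over all 12 arrays 2 were called, both lower without Tnfr1, beside 1.59% of all genes called lower. Cish, a SOCS relative induced through STAT5, was one of 10 further brakes on the pathway, the only one called. It read 7.63, 7.66 and 7.58 on the Tnfr1,2-/- arrays, 7.95, 8.07 and 7.61 on the Tnfr1-/- arrays, 8.86, 8.40 and 8.44 on the Tnfr2-/- arrays and 8.54, 8.56 and 8.47 on the wildtype arrays, with every array without Tnfr1 below every array with it. Cish fell by 0.90 log2 units in Tnfr1,2-/- glomeruli (1.87-fold, adjusted p = 0.013, limma) and by 0.80 over all 12 arrays (1.74-fold, adjusted p = 0.0015), while its change in Tnfr1-/- glomeruli was not called (-0.65, adjusted p = 0.091). Among the SOCS-box inhibitors measured, Cish was the only one called in this fit.

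Lbp, which encodes the acute phase protein that carries lipopolysaccharide, was the only call among 17 genes known to be induced through STAT3, both against wildtype (1.3% of all genes in Tnfr1,2-/- and 1.2% in Tnfr1-/- glomeruli) and over all 12 arrays (2.52%). It read 6.67, 6.68 and 6.67 on the Tnfr1,2-/- arrays, 7.07, 6.27 and 6.66 on the Tnfr1-/- arrays, 8.81, 8.15 and 7.92 on the Tnfr2-/- arrays and 8.31, 7.93 and 7.69 on the wildtype arrays. The groups without and with Tnfr1 were separate, and Lbp fell by 1.31 log2 units in Tnfr1,2-/- glomeruli (2.48-fold, adjusted p = 0.031), by 1.32 in Tnfr1-/- glomeruli (2.49-fold, adjusted p = 0.030) and by 1.47 over all 12 arrays (2.77-fold, adjusted p = 0.00065). The median change of the 17 genes was -0.24 in Tnfr1,2-/- and -0.07 in Tnfr1-/- glomeruli, beside -0.0012 and -0.0049 over all genes. Their summed linear signal ran from 22203 to 23562 in Tnfr1,2-/- and from 23082 to 24215 in Tnfr1-/- glomeruli. It ran from 23618 to 28574 in Tnfr2-/- and from 24812 to 27640 in wildtype glomeruli. The sums of Tnfr1,2-/- and Tnfr1-/- glomeruli thus lay below all wildtype sums, and those of Tnfr2-/- glomeruli overlapped them. By array set, with genotypes mixed, the sum had a median of 27257 on set 1 arrays and 23229 on set 2 arrays. Tnfr1,2-/- held more set 2 arrays than the other genotypes, and the part of the array set in these changes was not tested.

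None of the other 3 lists held a call against wildtype. Between mutants, the receptor gene Il27ra was called lower in Tnfr1-/- against Tnfr2-/- glomeruli (1 of 7 in its list, 1.2% of all genes). Among 7 further ligands and receptors measured, Ebi3, a secreted cytokine subunit, had the smallest adjusted p in Tnfr1,2-/- glomeruli (-0.52, adjusted p = 0.31), followed by the ciliary neurotrophic factor receptor gene Cntfr (-0.28, adjusted p = 0.67). Among 10 signal transducers these were the kinases Tyk2 (-0.41, adjusted p = 0.53) and Jak2 (-0.33, adjusted p = 0.69). Among 5 genes that control Il6 transcription or mRNA stability they were Zfp36, which destabilises cytokine mRNA (-0.91, adjusted p = 0.77), and Rc3h1, the mRNA decay factor roquin (0.17, adjusted p = 0.79). Zfp36 read 10.2, 8.54 and 8.84 on the Tnfr1,2-/- arrays and 10.6, 10.6 and 9.09 on the wildtype arrays. In both genotypes the set 2 arrays read lowest, and Tnfr1,2-/- held more of them. The part of the array set in this change was not tested.

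The genes whose pattern was most like that of Il6 over the 12 arrays, out of 18193 compared, were Cstb, an inhibitor of cathepsins (Pearson r = 0.958), Tnfaip2, first found as a TNF-induced transcript (0.945), Pla2g4a, which encodes cytosolic phospholipase A2 (0.938), the lectin receptor gene Cd302 (0.925) and Ch25h, which encodes an oxysterol-forming enzyme (0.923). For Lif they were Plekhm3 (0.979), Cish (0.961), Oasl2, an interferon-stimulated gene (0.961), the IkB kinase relative Ikbke (0.960) and the small GTPase gene Rhob (0.960). The points share the 4 genotypes and the 2 array sets, so that these values describe likeness on these arrays and carry no test.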

How the data were processed

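Glomeruli of 4 genotypes were profiled on Affymetrix Mouse Genome 430 2.0 arrays, 3 per genotype and 12 in all. The deposited values are log2 signals per probe set, which the authors obtained by running the robust multichip average on all arrays at once in RMA Express 1.0 (beta 2). They ran from 1.93 to 14.1, with array medians of 5.59 to 5.64, and were used as they stand. Arrays give no read depth, and their number limits the precision. A log2 signal is not comparable between probe sets.

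Probe sets with exactly 1 gene symbol in the platform annotation (34958 of 45101) were kept, and for each of 18194 genes the probe set of highest mean was tested. The 64 control probe sets served only for the 3′ minus 5′ differences. Linear models over all 12 arrays came from limma 3.58.1 under R 4.3.3 (eBayes after contrasts.fit, without trend), with Benjamini-Hochberg correction across the genes of each comparison. The methods of the study used SAM for pairs of groups, which was rebuilt as an alternative. The script was tested on simulated data.

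The 10 genes and all lists were chosen with earlier results of these data known. Named genes were the 10 members, every list gene called against wildtype or for a locus, otherwise the 2 of a list with the smallest adjusted p in Tnfr1,2-/- glomeruli, the 5 genes most like Il6 and the 5 most like Lif, and the targeted genes. Il27ra was named in addition for its call between mutants. Markers were named only where called. Alternatives were averaging the probe sets of a gene, all probe sets, SAM, only the 6 arrays compared, a variance trend, array weights, other fold thresholds (none or 2-fold), median centring, cyclic loess, a filter on dim probe sets (log2 of at least 6 on 3 arrays), a block for the replicate number or the array set, and each array left out. Values within array sets, and the alternatives for the Tnfr1 locus changes of single genes, were added after the data were seen. Promoter sequences came from RefSeq (GRCm38.p6).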

Additional observations from a re-analysis of the deposited data

How the results depend on the processing

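The counts of called genes among the 10 depended on the fit more than the directions did. In Tnfr1,2-/- against wildtype glomeruli the count was 1, but 0 when all probe sets were tested, 2 with SAM, 3 with the array set as a block, 4 with array weights and 4 with the replicate block, and 0 to 1 when 1 array was left out. In Tnfr1-/- against wildtype glomeruli it was 0, but 1 with the mean of probe sets, 2 with SAM, 2 with the array set as a block and 2 with the replicate block, and 0 to 1 with 1 array left out (Il6 without Tnfr1,2-/- replicate 1, Lif without Tnfr2-/- replicate 1). In Tnfr1,2-/- against Tnfr2-/- glomeruli it was 2, but 0 with only the 6 arrays compared, 1 with all probe sets, SAM, median centring or cyclic loess, 3 with the array set as a block (Il6 added), 5 with array weights and 5 with the replicate block, and 0 to 2 with 1 array left out. In Tnfr1-/- against Tnfr2-/- glomeruli it was 1, but 0 with all probe sets, 2 with SAM, 3 with array weights, 3 with the array set as a block and 3 with the replicate block, and 0 to 2 with 1 array left out. Over all 12 arrays for Tnfr1 it was 3, but 4 with the array set as a block (Socs3 added), 5 with array weights and 5 with the replicate block (Il6st and Socs3 added), and 2 to 5 with 1 array left out. Over all 18194 genes, array weights called 1040 in Tnfr1,2-/- against wildtype (236 in the main fit). They called 760 in Tnfr1,2-/- (253) and 327 in Tnfr1-/- (219) against Tnfr2-/- glomeruli, and 715 for Tnfr1 over all 12 arrays (459). SAM called 328 in Tnfr1,2-/- and 284 in Tnfr1-/- against wildtype, then 314 and 300 against Tnfr2-/- glomeruli. The array set block called 388, 470, 404 and 462 in the same order, and 652 for Tnfr1. The cause of these changes was not tested.

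Replicate numbers were not treated as pairs, since only 15 of 18 same-numbered pairs of arrays correlated above 0.1 (-0.23 to 0.73, median 0.49, against a median of -0.34 over 36 pairs of other numbers). The 3 others all held Tnfr1,2-/- replicate 2, an array of set 2. The correlations are a hint from the data, not the design. Among the 10 genes, the replicate block changed only the counts given above. Over all genes it called 597 in Tnfr1,2-/- (236 without it) and 437 in Tnfr1-/- (219) against wildtype, 639 in Tnfr1,2-/- (253) and 450 in Tnfr1-/- (219) against Tnfr2-/- glomeruli, and 730 (459) for Tnfr1 over all 12 arrays. Lif and Lifr kept their call for Tnfr1 under every alternative.

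Changes that turned their sign were all of genes not called. In Tnfr1,2-/- against wildtype glomeruli these were Il11 with array weights (-0.27) and with 1 array left out (-0.016 to 0.52), Osmr with the mean of probe sets (-0.30), array weights (-0.0074) and 1 array left out (-0.039 to 0.14), and Socs1 with the array set as a block (0.040) and 1 array left out (-0.48 to 0.00038). In Tnfr1-/- against wildtype glomeruli they were Il11 with array weights (0.21), Socs1 with array weights (-0.11), and, with 1 array left out, Il11 (-0.81 to 0.33), Socs1 (-0.24 to 0.22) and Socs2 (-0.079 to 0.49). In Tnfr2-/- against wildtype glomeruli they were Il6st with the mean of probe sets (-0.12), Osmr with the mean of probe sets (-0.063) and median centring (-0.014), Socs2 with array weights (0.076), and, with 1 array left out, Lif (-0.055 to 0.60), Il6st (-0.064 to 0.20), Osmr (-0.054 to 0.12), Lifr (-0.36 to 0.029), Socs2 (-0.23 to 0.16) and Socs3 (-0.0017 to 0.39). For Tnfr1 over all 12 arrays it was Il11 with 1 array left out (-0.54 to 0.029). With 3 arrays per genotype, changes of single dim probe sets such as Socs1 are limited by their spread, and Socs1 did not pass the filter on dim probe sets, which gave it no value.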
